A study of Mus musculus with 6 samples.

Results

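The genes encoding proteins of the cytosolic ribosome were examined in the soleus, a slow-twitch muscle of the mouse calf. Members were the genes named alone by at least 1 array feature under a ribosomal protein symbol of the Rpl, Rps or Rplp series, and each gene was read from its feature with the highest mean over 6 arrays. This gave 39 genes, on 45 features, of 30145 genes named alone by a feature. Of the 39 symbols, 25 belong to the Rpl series of the large subunit and 14 to the Rps series of the small subunit. RefSeq lists Rpl6l, which matches the name pattern, as a pseudogene. A further 39 ribosomal symbols, among them Rpl3, Rplp1, Rplp2 and Rps6, stood only on features that list other symbols too, so no gene is named from those.

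There were 3 cKO males, labelled DMP1 Cre Mbtps1 knockout, and 3 Control males labelled wild type, which the series title calls littermates. All were 39 to 41 weeks old, the soleus was taken from each leg, and each mouse gave 1 array. Dmp1 is a gene of osteocytes, and the label names Cre under its control as the means of deleting Mbtps1, which encodes site-1 protease. The labels do not say in which cells of the muscle Cre acted, or whether Control mice carried other alleles. Mbtps1 itself had log2 signals of 7.77, 7.44 and 7.11 in cKO 1 to 3, against 7.39, 7.05 and 7.24 in Control 1 to 3. These ranges overlap, and the part of the gene that the feature covers is not given in the sources used here, so Mbtps1 does not check the labels.

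A ribosome is a complex of ribosomal RNA and a set of proteins, most of them in a single copy, and the proteins are made in matched amounts. Their mRNAs belong to the terminal oligopyrimidine class, whose translation is governed by the growth kinase complex mTORC1. Most are expressed in every cell, while a few have paralogues with narrower expression, of which Rpl3l, made in skeletal and heart muscle, takes the place of Rpl3 in the ribosome. Ribosome number limits how much protein a muscle fibre can make, and new ribosomes are built when muscle grows.

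The slow myosin gene Myh7, a marker of the soleus, read 19.2 to 19.4 on all 6 arrays, and the osteocyte marker Dmp1 was below the filter. The fast fibre genes Actn3 and Myh4 stood out in cKO 2, at 15.67 and 16.88, against 7.97 to 11.47 and 11.72 to 13.67 on the other arrays, while the other 7 fast fibre markers differed by -0.18 to 0.02. Endothelial markers were lower in cKO for 6 of 6 (median difference -0.41), with list means of 9.76 to 9.89 in cKO mice, against 9.63 to 10.76 in Control mice. Macrophage markers were higher for 6 of 7 (median difference 0.32), with list means of 5.83 to 6.64 in cKO mice, against 5.61 to 6.18 in Control mice. Mouse numbers fell in 2 ranges, low for cKO 1, Control 1 and Control 2 and high for cKO 2, cKO 3 and Control 3. The labels do not say what a range stands for. The first principal component of all features tested was negative for the low-numbered arrays and positive for the high-numbered ones. limma's array weights were lowest for cKO 1, at 0.254 against 0.589 to 4.01 for the others, and its array median of 4.37 was the highest. Differences without cKO 1, and for some members within each number range, are given beside the results that they move most. Over all 33334 features tested, the median difference, cKO minus Control, was 0.07 log2 units, and quantile normalization brought it to -0.0038. Muscle was profiled as a bulk tissue, in which fewer cells of a type and less RNA per cell cannot be told apart.

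No difference in ribosomal protein mRNAs between cKO and Control soleus was detected, and the members' differences were distributed much like those of all features. All 39 genes passed the filter on low values. None of the 39 passed an adjusted p of 0.05 in limma, against 0.0% of all features, and the smallest unadjusted p of a member was 0.0798. At an unadjusted p under 0.05 the count of members was 0, where 4.5% of all features tested passed. The mean was higher in cKO for 25 of 39 members, or 64.1%, against 65.8% of all features. The count was 17 without cKO 1, where 47.1% of all features were higher, and 17 after quantile normalization, where 49.1% were. The median difference of the members was 0.07 log2 units, the same as that of all features, and without cKO 1 it was -0.06, against -0.01 for all features. The middle range of their differences, from the lower to the upper quartile, ran from -0.06 to 0.23, against -0.05 to 0.22 for all features. A difference within 0.25 log2 units was found for 28 of 39 members, or 71.8%, against 70.9% of all features. A difference of 0.5 or more was found for 1 member, Rpl35, or 2.56%, against 8.21% of all features. For 28 of the 39 the difference was smaller than the spread between replicates. No such share was computed for all features, so this count says nothing particular about the members. The 95% interval of a member's difference had a median half-width of 0.52 log2 units. For a typical member, a difference of about that size was needed for an unadjusted p under 0.05. An adjusted p under 0.05 needed more, since the tendon marker Angptl7, at a difference of 2.20, had a limma adjusted p of 0.999. Changes above 0.52 could therefore go uncalled too.

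**Figure D1:**
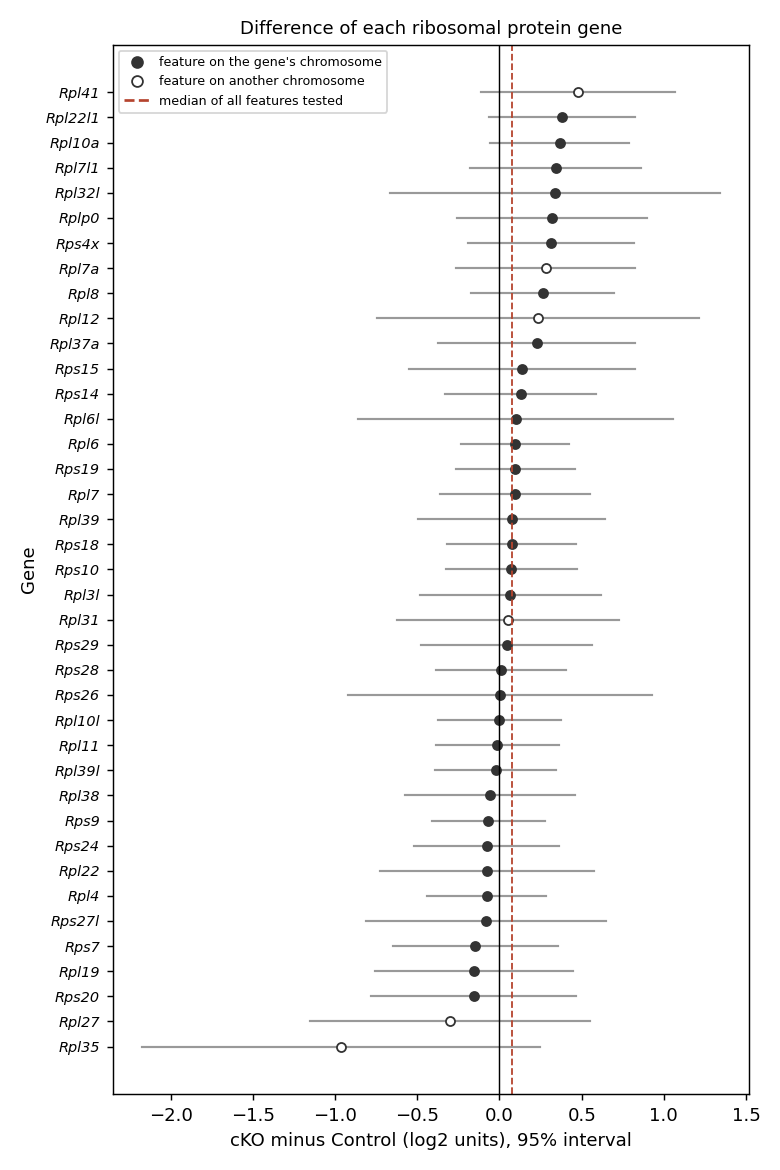
cKO minus Control difference in log2 units (x axis) for each of the 39 ribosomal protein genes (y axis), with limma's 95% interval as a bar. Every interval includes 0, and the points scatter around the dashed line, the median of all features tested at 0.07. Open points are genes read from a feature on another chromosome than the gene's own.

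Large subunit members had a median difference of 0.09 and small subunit members one of 0.03. After quantile normalization the medians were 0.0002 and -0.04, and without cKO 1 they were -0.07 and -0.03. Mean signals over the small subunit members were 8.96, 8.90 and 8.81 in cKO 1 to 3, against 8.79, 9.11 and 8.69 in Control 1 to 3. Over the large subunit members they were 11.00, 10.77 and 10.64 in cKO 1 to 3, against 10.70, 10.95 and 10.53 in Control 1 to 3. In both subunits Control 2 lay above cKO 2 and cKO 3, and the groups overlapped.

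Rpl3l, the muscle paralogue of Rpl3, had log2 signals of 13.94, 13.73 and 13.32 in cKO 1 to 3, against 13.44, 13.77 and 13.58 in Control 1 to 3. The highest and the lowest of the 6 values were both in cKO mice, so the Control values lay inside the cKO range. The difference was 0.07 log2 units (SE 0.23, 95% interval -0.48 to 0.62, limma adjusted p = 0.999), and an exact two-sided permutation test of 3 against 3 arrays gave p = 0.8, where 0.1 is the smallest possible. Among low-numbered mice it was 0.34 and among high-numbered mice -0.06, and its sign turned without cKO 1 (-0.07) and without Control 1 (-0.01).

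Rpl3 shared its feature with the pseudogene Gm12816, so the signal cannot be assigned to Rpl3 alone. That shared feature read 11.89, 11.26 and 11.79 in cKO 1 to 3, against 11.77, 11.96 and 11.24 in Control 1 to 3. Both groups held 2 higher arrays and 1 lower one, cKO 2 and Control 3. Its difference was -0.01 (SE 0.28, 95% interval -0.68 to 0.65, limma adjusted p = 0.999). Rpl3l minus the shared feature changed by 0.08 log2 units between genotypes, with an exact two-sided permutation p of 0.9.

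The starts of Rpl3l and of other members are shown because Rpl3l is made in fewer tissues than most ribosomal protein genes. Of the others shown, Rpl22l1 is itself one of the paralogues. Sequences are from RefSeq on GRCm38.p6, each of 60 bases on the plus strand. The first 4 run from 40 bases before a transcription start to 20 after it. Capitals there mark a C followed by at least 6 bases that are each C or T. Such a run was searched within 20 bases of the start, on the strand that reads as the RNA does. Rpl3l's first start (chr17:24727786-24727845) holds no such run. Rpl22l1 (chr3:28805468-28805527), Rpl7a (chr2:26910767-26910826) and Rpl38 (chr11:114668540-114668599) each hold one. The last line is upstream of Rpl3l's second start, from 130 to 71 bases before it (chr17:24732555-24732614), with a match to the MEF2 motif, bound by a family of muscle transcription factors, in capitals.
Rpl3l first start: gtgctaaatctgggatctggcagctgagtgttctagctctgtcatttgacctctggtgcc
Rpl22l1: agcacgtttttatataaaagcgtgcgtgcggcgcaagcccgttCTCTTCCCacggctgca
Rpl7a: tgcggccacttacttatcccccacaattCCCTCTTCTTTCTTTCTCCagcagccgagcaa
Rpl38: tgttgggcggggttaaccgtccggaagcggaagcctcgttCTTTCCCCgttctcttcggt
Rpl3l second start: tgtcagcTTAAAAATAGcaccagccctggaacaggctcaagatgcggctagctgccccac

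RefSeq promoter entries were found for 33 of the 39 members, with 41 starts. The pyrimidine run was present at 46.3% of these starts, against 18.7% of all 32851 starts in the table. CCGGAA on either strand, the core bound by ETS factors, was present in the 300 bases around 43.9% of member starts and 14.9% of all starts, and it overlapped the pyrimidine run at 1 member start. The MEF2 motif, on either strand, was present at 2.44% of member starts, that of Rpl3l, and at 3.19% of all starts. CANNTG, which reads the same on both strands, was present at 53.7% of member starts, Rpl3l among them, against 72.3% of all. These matches describe letters in a window and not bound sites.

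Among the other paralogues, Rpl22l1 was the one whose groups did not overlap. Rpl22l1 is a close relative of the large subunit gene Rpl22, whose protein is known in mouse to hold Rpl22l1 down. Rpl22l1 had log2 signals of 8.58, 8.50 and 8.30 in cKO 1 to 3, against 7.83, 8.23 and 8.18 in Control 1 to 3. All cKO arrays were above all Control arrays, by a smallest margin between cKO 3 and Control 2. The difference was 0.38 log2 units, or 1.30-fold (SE 0.19, limma adjusted p = 0.999). Among low-numbered mice it was 0.55 and among high-numbered mice 0.22, and it was 0.27 after quantile normalization and 0.32 without cKO 1. Rpl22 had signals of 8.86, 8.12 and 7.97 in cKO 1 to 3, against 8.36, 8.60 and 8.22 in Control 1 to 3, with cKO 1 the highest array and the other cKO arrays the lowest. Its difference was -0.08 (SE 0.27, limma adjusted p = 0.999), and -0.35 without cKO 1.

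Rpl7l1, a relative of Rpl7 that in human cells works in the nucleolus, had signals of 8.96, 8.90 and 8.85 in cKO 1 to 3, against 8.58, 8.90 and 8.20 in Control 1 to 3. Control 2 lay above cKO 2 and cKO 3, and the difference was 0.34 (SE 0.22, limma adjusted p = 0.999). Rpl7 differed by 0.09 (SE 0.19), with values between 7.20 and 7.75 on all arrays. Rps27l, a p53-responsive relative of the small subunit gene Rps27, had signals of 9.12, 8.79 and 8.69 in cKO 1 to 3, against 8.86, 9.53 and 8.44 in Control 1 to 3. Control mice spanned the whole range, and the difference was -0.08 (SE 0.31). The testis-expressed Rpl10l and Rpl39l read 4.45 to 4.90 and 3.92 to 4.12 in cKO mice, against 4.54 to 4.79 and 3.80 to 4.28 in Control mice. The groups overlapped for both. Rpl39, the widely expressed relative of Rpl39l that lines the exit tunnel, differed by 0.07 (SE 0.24), and by -0.07 without cKO 1.

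**Figure D2:**
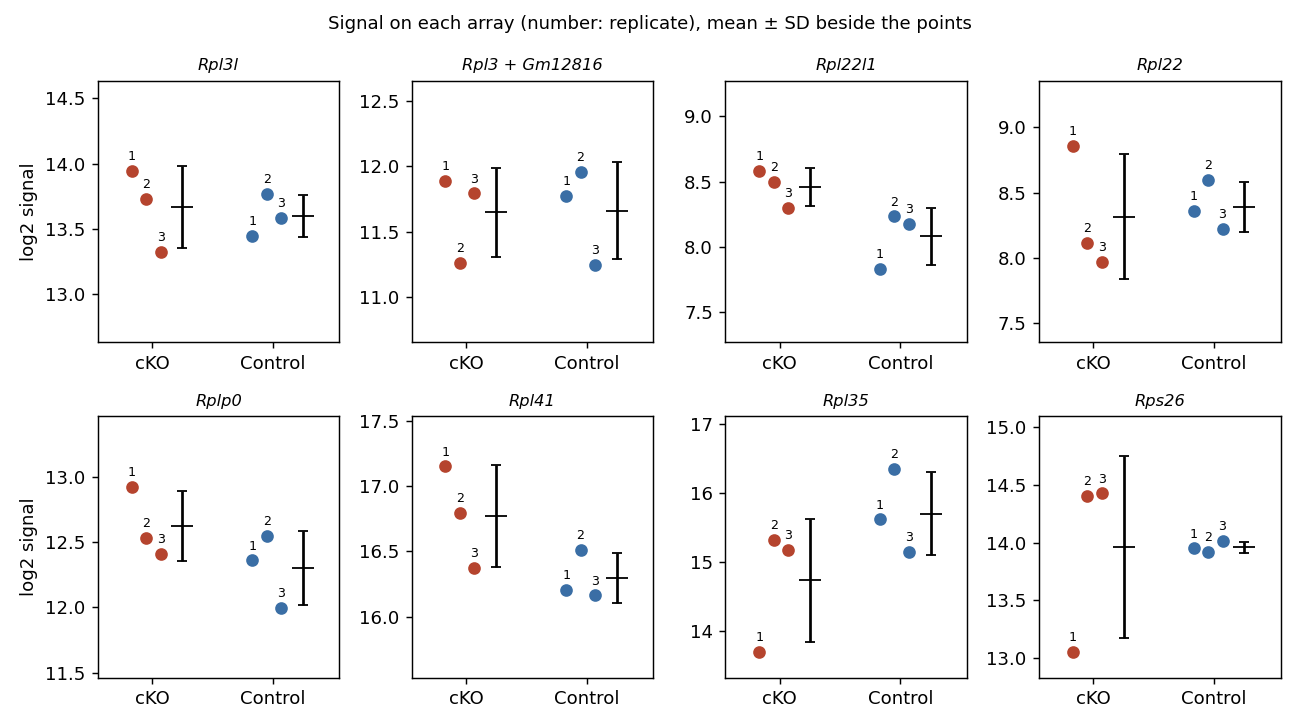
Log2 signal (y axis) on each array for 7 members and for the feature shared by Rpl3 and Gm12816, with cKO mice in red to the left of Control mice in blue. Numbers are replicates, and bars give mean ± SD (n = 3). The Rpl22l1 groups do not overlap, while in Rpl35 and Rps26 the array of cKO 1 lies far below the others.

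The stalk that recruits elongation factors is built on Rplp0, the only stalk gene with a feature of its own. Rplp0 had signals of 12.93, 12.53 and 12.41 in cKO 1 to 3, against 12.360, 12.551 and 11.996 in Control 1 to 3. The difference was 0.32 (SE 0.24, limma adjusted p = 0.999), with 0.47 among low-numbered and 0.48 among high-numbered mice. Control 2 lay above cKO 2 and cKO 3, and without cKO 1 the difference was 0.17. With the number range as a block, Rplp0 had an unadjusted p of 0.0485 at a difference of 0.47, where 6.01% of all features were under 0.05. Rpl12, which sits at the base of the stalk, read 17.5 in cKO 1 and 16.1 to 16.8 on the other 5 arrays, for a difference of 0.23 (SE 0.41) that turned to -0.21 without cKO 1.

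Groups stood apart, with cKO higher, in 3 members, namely Rpl22l1, Rpl10a and Rpl8, or 7.69% of 39, against 8.95% of all features tested. None lay wholly below, against 2.05% of all features, and in either direction 11.0% of all features stood apart. Rpl10a, a protein of the L1 stalk near the exit site for tRNA, read 7.28, 7.14 and 7.13 in cKO 1 to 3, against 6.62, 7.11 and 6.73 in Control 1 to 3. Control 2 came closest to the cKO arrays, and the difference was 0.37 (SE 0.18, limma adjusted p = 0.999). Rpl8, which lies close to the catalytic centre, read 12.29, 12.31 and 12.22 in cKO 1 to 3, against 11.87, 12.18 and 11.99 in Control 1 to 3. Its difference was 0.26 (SE 0.18). Without cKO 1 the Rpl10a and Rpl8 differences were 0.32 and 0.26. After quantile normalization Rpl22l1 and Rps4x were the members with the groups apart, and Rpl10a and Rpl8 were not, where 9.97% of all features stood apart. Tendon cell markers moved the same way as these 3 genes, with 9 of 9 tested markers higher and list means of 7.15 to 7.43 in cKO mice, against 5.77 to 6.59 in Control mice. Of its defining markers Tnmd differed by 1.27 and Scx by 0.07, and the part of tendon cells in the 3 differences was not tested.

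Of the other members with the largest positive differences, Rpl41, which encodes the smallest ribosomal protein, had signals of 17.15, 16.79 and 16.37 in cKO 1 to 3, against 16.21, 16.51 and 16.16 in Control 1 to 3. Control 2 lay above cKO 3, and the difference was 0.48 (SE 0.25, limma adjusted p = 0.999). With the number range as a block it was 0.61 at an unadjusted p of 0.0357, and without cKO 1 it was 0.29 at an unadjusted p of 0.249. The X-linked small subunit gene Rps4x read 12.05, 11.72 and 11.55 in cKO 1 to 3, against 11.36, 11.63 and 11.40 in Control 1 to 3. Control 2 exceeded cKO 3, and the difference was 0.31 (SE 0.21), or 0.17 without cKO 1. Rpl32l and Rpl7a differed by 0.34 (SE 0.42) and 0.28 (SE 0.23), each with overlapping groups, and without cKO 1 by 0.18 and 0.16.

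The members with the most negative differences were, in order, Rpl35, Rpl27, Rps20, Rpl19, Rps7, Rps27l, Rpl4 and Rpl22. Rpl35, a protein beside the exit tunnel, read 13.7, 15.3 and 15.2 in cKO 1 to 3, against 15.6, 16.3 and 15.1 in Control 1 to 3. The value of cKO 1 lay well below all others, and the remaining cKO arrays overlapped with Control 3. Its difference was -0.97 (SE 0.51, limma adjusted p = 0.999). Among low-numbered mice it was -2.27 and among high-numbered mice 0.10, and it was -0.45 without cKO 1. Rpl27, another large subunit gene, read 13.1, 13.2 and 13.1 in cKO 1 to 3, against 13.3, 14.2 and 12.9 in Control 1 to 3, and differed by -0.30 (SE 0.36). Without Control 2 the Rpl27 difference was 0.08.

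For Rps20, Rpl19 and Rps7 the differences were -0.16 (SE 0.26), -0.16 (SE 0.25) and -0.15 (SE 0.21), and in each the highest array was Control 2. Without that array they were 0.08, 0.01 and 0.02. Rpl4, a large subunit protein that reaches into the exit tunnel, had closely spaced values, at 17.33, 17.30 and 17.38 in cKO 1 to 3, against 17.35, 17.43 and 17.47 in Control 1 to 3. Its difference was -0.08 (SE 0.15). The remaining small subunit members, Rps15, Rps14, Rps19, Rps18, Rps10, Rps29, Rps28, Rps26, Rps9 and Rps24, differed by -0.08 to 0.14.

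Rps26, a small subunit protein at the mRNA exit channel, had equal group means, at 13.96 in both, with different spreads. It read 13.06, 14.41 and 14.42 in cKO 1 to 3, against 13.95, 13.92 and 14.01 in Control 1 to 3. The cKO arrays thus lay on both sides of the tight Control values, with cKO 1 below and the others above. Without cKO 1 the difference was 0.46 at an unadjusted p of 0.0371, where 6.22% of all features were under 0.05. Fau, a small subunit gene outside the name pattern that was read at another chromosome than its own, had its lowest value in cKO 1 too, at 10.53, 12.07 and 12.02 in cKO 1 to 3, against 11.78, 12.61 and 11.78 in Control 1 to 3.

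**Figure D3:**
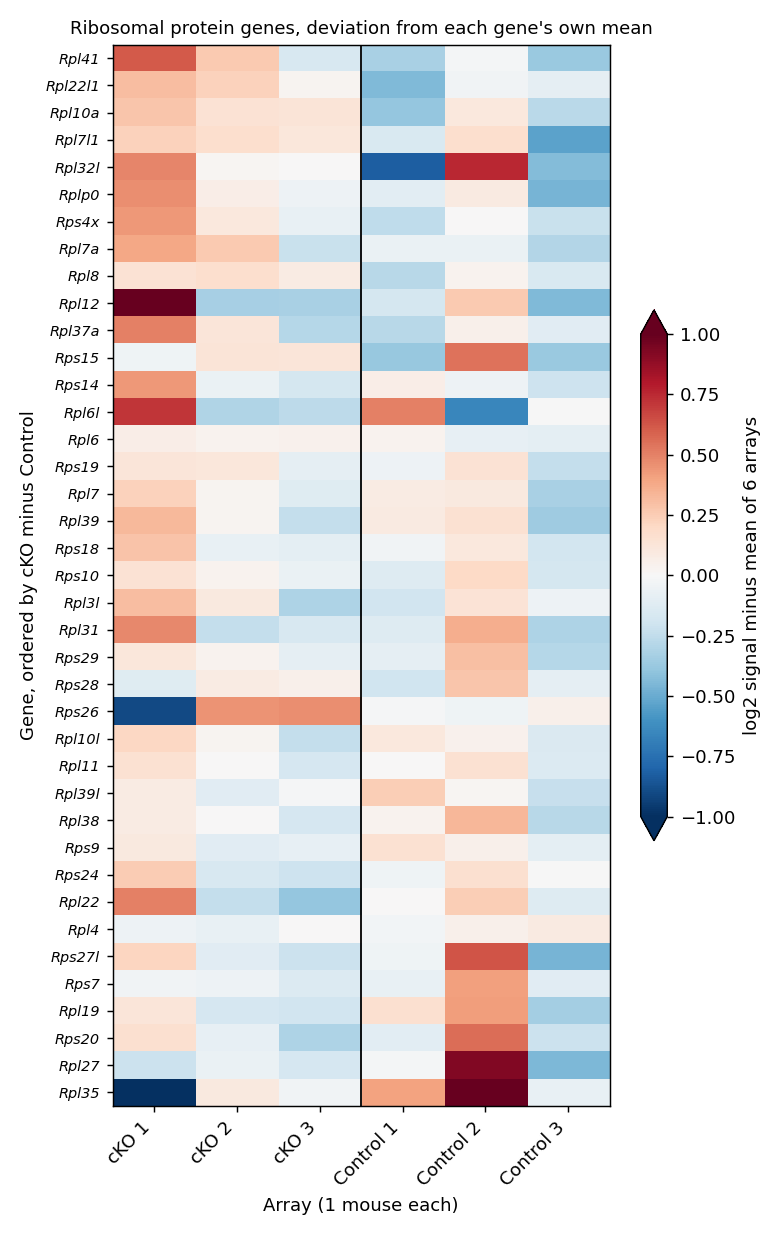
Log2 signal of each of the 39 genes (rows, ordered by cKO minus Control) on each of the 6 arrays (columns, cKO left of Control), shown as the deviation from that gene's mean; the colour scale ends at -1 and 1. cKO 1 and Control 2 are mostly red and Control 3 mostly blue, while no block of colour divides cKO from Control.

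The members' levels differed between mice of the same genotype. Member means over the 39 genes were 10.27, 10.10 and 9.98 in cKO 1 to 3, against 10.01, 10.29 and 9.87 in Control 1 to 3. Control 2 was thus the highest array and Control 3 the lowest, with the cKO arrays between them. Control 2 lay above both other Control arrays in 30 of 39 members, or 76.9%, against 32.5% of all features tested. Control 3 lay below both in 26, or 66.7%, against 29.9%. Among cKO mice, cKO 1 was the highest in 32 members, or 82.1%, against 66.5% of all features.

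Members were also compared by mouse number. The mean of the low-numbered mice exceeded that of the high-numbered mice in 34 of 39 members, or 87.2%, against 60.8% of all features. In 14 members, or 35.9%, all low-numbered arrays lay above all high-numbered arrays, against 12.6% of all features. Members are not independent of each other, since they were read from the same 6 arrays, and no test was made of these shares. Within the high numbers, where 2 cKO arrays face Control 3 alone, 34 of 39 members were higher in cKO, against 43.5% of all features. Within the low numbers, where cKO 1 faces 2 Control arrays, the count was 26 of 39, or 66.7%, against 79.7%. The member medians were 0.16 within the high and 0.14 within the low numbers, against -0.04 and 0.26 for all features.

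Some members were read at a place in the genome other than their own gene. Feature identifiers carry a chromosome code, which equalled RefSeq's chromosome for 99.68% of 30099 single-symbol features. For 6 of the 39 members it did not, namely Rpl12, Rpl27, Rpl31, Rpl35, Rpl41 and Rpl7a. Ribosomal protein genes have many processed copies across the genome, and signals of a feature at such a copy and at the parent gene cannot be told apart here. Rpl35 and Rpl41, the 2 members with the largest absolute differences, were both among the 6.

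Of the 6 genes, 4 also had a feature on their own chromosome. Rpl35's own-chromosome feature, on chromosome 2, read 12.8, 12.9 and 12.7 in cKO 1 to 3, against 13.0, 13.3 and 12.6 in Control 1 to 3. Its difference was -0.18 (SE 0.24), against -0.97 for the feature coded to chromosome 1, and cKO 1 did not stand apart on it. For Rpl41 the own-chromosome feature differed by 0.04 (SE 0.15), against 0.48. For Rpl27 and Rpl7a the values were 0.03 (SE 0.19) and 0.12 (SE 0.19), against -0.30 and 0.28. Rps26 was read on its own chromosome, 10, and a feature naming it on chromosome 8 read 11.44, 11.88 and 11.99 in cKO 1 to 3, against 11.30, 11.41 and 11.26 in Control 1 to 3. All its cKO arrays were above its Control arrays, and it differed by 0.44 (SE 0.21). Over the 37 genes with an own-chromosome feature the median difference was 0.07, and the range of differences was -0.18 to 0.38.

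Ribosomal features that list several symbols were close to the members. Of 53 such features 52 were tested, 35 were higher in cKO and 17 lower, with a median difference of 0.12 log2 units. At an unadjusted p under 0.05 there were 2 higher and 0 lower, where 3.7% and 0.807% of all features were called. Features of ribosomal pseudogenes, 187 tested, had a median of 0.12, with 6 under 0.05 and higher. The mitochondrial ribosomal protein genes, which serve a separate ribosome, had a median of -0.05 over 74 genes, with 28 higher and 46 lower. After quantile normalization the medians were 0.01, 0.07 and -0.15, against -0.01 for the 39 cytosolic members. Without cKO 1 they were -0.01, -0.03 and -0.15, against -0.06 for the 39 members.

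Genes of the ribosome biogenesis and growth signalling lists included several with unadjusted p under 0.05. Both lists were chosen with earlier results of these data known. Whether they differed from the ribosomal protein genes was not tested. Of 43 tested genes of ribosome biogenesis and RNA polymerase I, 8 had an unadjusted p under 0.05 and were higher in cKO, and 0 were lower, where 3.7% and 0.807% of all features were called, and none passed an adjusted p of 0.05 in limma. The count of 8 was also 8 without cKO 1, where 6.22% of all features were under 0.05 in either direction. It was 4 without Control 1, where no such share was computed. The median difference of 0.14 was 0.06 without cKO 1. In 15 of the 43 the cKO arrays all lay above the Control arrays, against 8.95% of all features. The count of 15 was 9 after median centring, where 5.15% of all features were so placed, and 10 after quantile normalization, where 4.99% were. The 4 with the smallest p were Bysl, Nolc1, Rrp12 and Nop2. Bysl, needed for the small subunit, read 8.13, 8.25 and 8.19 in cKO 1 to 3, against 7.59, 7.59 and 7.53 in Control 1 to 3, a difference of 0.62 (SE 0.14, limma adjusted p = 0.999). Nolc1, Rrp12 and Nop2, all nucleolar, differed by 0.71 (SE 0.17), 0.83 (SE 0.22) and 0.63 (SE 0.18), and each had its groups apart. Nucleolin, Ncl, differed by -0.29 (SE 0.21).

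Of 17 tested genes of mTORC1 and growth signalling, 4 had an unadjusted p under 0.05, all higher in cKO, where 3.7% of all features were called. The count was 6 without cKO 1, where 6.22% of all features were under 0.05 in either direction. It was 2 without Control 1, where no such share was computed. The 4 were Myc, a transcription factor that drives ribosome production, Rps6kb2 and Eif4ebp1, both targets of mTORC1, and Mlst8, a subunit of the complex. Myc read 6.54, 6.93 and 6.35 in cKO 1 to 3, against 5.96, 5.85 and 5.63 in Control 1 to 3, a difference of 0.79 (SE 0.19, limma adjusted p = 0.999). Groups were apart, with cKO above, for 8 of the 17, against 8.95% of all features. The count was 3 after median centring, against 5.15%, and 5 after quantile normalization, against 4.99%. The median difference was 0.38, with 0.27 after quantile normalization and 0.20 without cKO 1. The list holds both activators and inhibitors of mTORC1 or translation, and all 17 tested genes were higher in cKO, against 65.8% of all features. That count was 14 after quantile normalization, against 49.1%, and 15 without cKO 1, against 47.1%. Among the inhibitors, Eif4ebp1, Tsc2, Eif4ebp2, Deptor and Tsc1 differed by 0.59, 0.51, 0.49, 0.43 and 0.21. The list median thus gives no direction of growth signalling. The tendon list means given above were also apart between the groups, and the endothelial and macrophage markers moved as given with overlapping list means. The part of these cell types in the biogenesis and growth signalling lists was not tested.

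**Figure D4:**
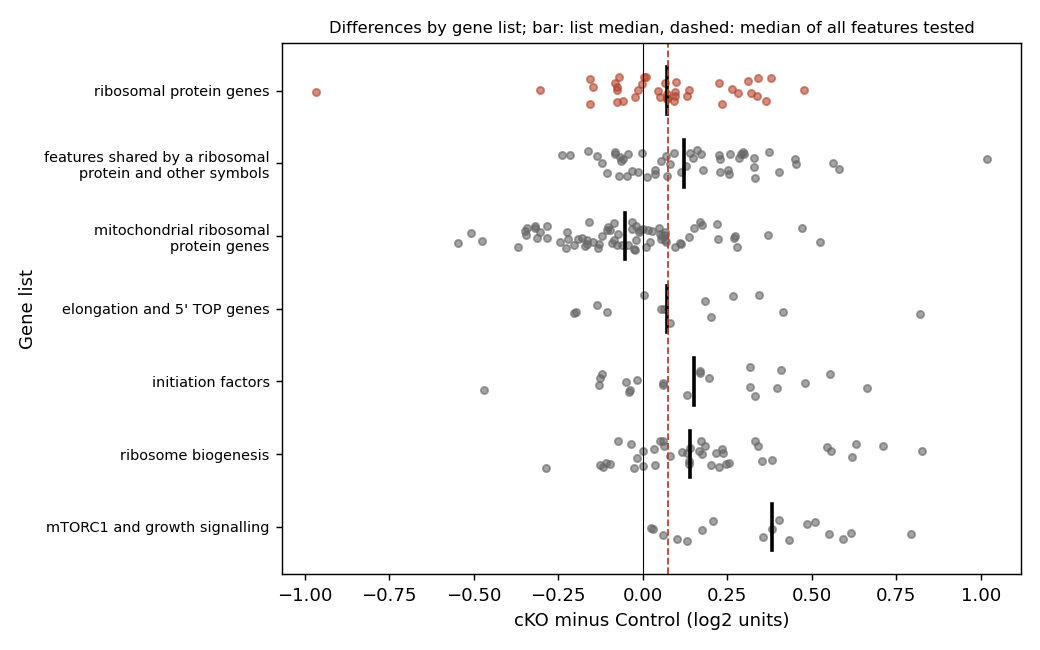
cKO minus Control difference in log2 units (x axis) for every tested gene or feature of 7 lists (y axis); black bars are list medians and the dashed line is the median of all features tested, 0.07. The ribosomal protein genes, in red, centre on the dashed line, and the growth signalling list has the highest median at 0.38.

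Elongation and initiation genes showed differences in both directions. Among 14 genes of elongation and the terminal oligopyrimidine class, 10 were higher, against 65.8% of all features, with a median of 0.07. At an unadjusted p under 0.05 there was 1, where 3.7% of all features were called higher. The elongation factor gene Eef1a1 read 16.0, 15.8 and 16.2 in cKO 1 to 3, against 15.0, 14.9 and 15.7 in Control 1 to 3, a difference of 0.82 (SE 0.27, limma adjusted p = 0.999). Its muscle paralogue Eef1a2 differed by 0.05 (SE 0.17). Btf3, Pabpc1 and Eef2 differed by 0.41 (SE 0.19), 0.27 (SE 0.21) and 0.20 (SE 0.18). Of 22 initiation factor genes 14 were higher, against 65.8% of all features, with a median of 0.15 that was 0.02 without cKO 1. At an unadjusted p under 0.05 there was 1, Eif3l at 0.66 (SE 0.20), where 3.7% of all features were called higher. Eif3d, Eif3k and Eif5b differed by 0.56 (SE 0.24), 0.48 (SE 0.22) and -0.47 (SE 0.23). After quantile normalization 7 of the 14 elongation genes and 14 of the 22 initiation genes were higher, against 49.1% of all features. Rpsa, a small subunit gene outside the name pattern, differed by 0.20 (SE 0.24).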

How the data were processed

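Values were the authors' deposited log2 signals, 1 column per array. Per the labels' protocols, total RNA was labelled as biotinylated cDNA with an Affymetrix kit. Background correction, summarisation and software are not given in the sources used here, and the log2 scale was read from the range of the values. Of 72688 features, 65956 held values. Symbols came from GEO's platform annotation, in which 30604 features carry 1 symbol and 2146 several. Features above their array's median on at least 3 arrays were tested with limma 3.58.1 in R 4.3.3 (lmFit, eBayes with an intensity trend), two-sided, over all 33334 features, with Benjamini-Hochberg adjustment. The fit was tested on simulated data. Tables and figures used Python 3.11.15. Array number limits the precision.

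Members, lists and tests were chosen with earlier results of these data known. Named genes were Rpl3l and other paralogues with their partners, stalk genes, the 8 largest and 8 most negative differences, and the 4 smallest p of each list. Rpl8, Rpl12, Rps26, the other small subunit members, Eef1a2 and Ncl were named after their values were seen. The Rpl3 test was replaced by the shared feature, since no feature names Rpl3 alone. Alternatives were quantile normalization, median centring, other filters, eBayes settings, array weights, blocks, each array left out, feature means and removal of saturated features. Replicate numbers were not taken to pair mice in the main fit. Correlations of same-numbered deviations were 0.13, -0.20 and 0.21. They were not compared with differently numbered ones, so they cannot show whether the numbers pair mice.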

Additional observations from a re-analysis of the deposited data

How the results depend on the processing

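The count of members past an adjusted p of 0.05 was 0 under all 18 alternatives and with own-chromosome features, which were added after the data were seen. Whole-table calls were 0 under all but 1 alternative, with 0 to 14 when an array was left out and 14 without Control 3. With so few calls over the table, the member count of 0 cannot show that the members were unchanged. The members' median difference ran from -0.06 to 0.16 over the alternatives, and was -0.01 after quantile normalization. The members' median level on an array had an SD of 0.26 between replicates, which is a spread of levels and not of the difference. Between 17 and 32 of the tested members were higher in cKO, and 0 to 2 had an unadjusted p under 0.05. The Rpl3l difference kept its sign except without cKO 1 (-0.072) and without Control 1 (-0.0105), in a range of -0.072 to 0.24 with 1 array left out. Fitting replicate number as a block left the Rpl3l difference at 0.07 and the count of members called at 0, while the biogenesis and growth signalling counts at an unadjusted p under 0.05 were 5 and 3, against 8 and 4. Of 696 single-gene values, 6 moved by more than 1 SD between replicates, all of Rpl4 and Rpl6 under scaling alternatives. The biogenesis count of 8 ran from 4 (without Control 1) to 8, and the growth signalling count of 4 from 2 (without Control 1) to 8 (array weights). For the replicate block, array weights and the fit without Control 1, no share of all features was computed. These list counts therefore cannot be set against the whole table. The Rpl3 and Rpl3l minus Rpl3 results gave no values because no feature names Rpl3 alone. Levels cannot be compared between features, and 3 arrays a group left typical members an interval of 0.52 log2 units either side.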

Other observations

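Several ribosomal protein genes carry small nucleolar RNAs, guides for rRNA modification, within them. RefSeq places 13 such genes within members, strand not considered, and 6 had a feature that passed the filter. Gm23969, inside Rpl7a, read 8.08, 8.34 and 8.82 in cKO 1 to 3, against 6.93, 6.59 and 7.42 in Control 1 to 3, a difference of 1.43 log2 units (SE 0.29, limma adjusted p = 0.999). Its groups were apart, while its host differed by 0.28 on the feature used and by 0.12 on the own-chromosome feature. Inside Rpl4, Snord16a read 9.49, 10.08 and 10.36 in cKO 1 to 3, against 8.10, 9.54 and 8.48 in Control 1 to 3, a difference of 1.27 (SE 0.42). The groups overlapped, since Control 2 lay above cKO 1. Also inside Rpl4, Gm22571 differed by 0.86 (SE 0.33), and the other 2 tested there by -0.15 and -0.39, against -0.08 for Rpl4 itself. Snora69, inside Rpl39, differed by -0.25 (SE 0.27). Of the 6, 3 were higher and 3 lower in cKO.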
